A study of Saccharomyces cerevisiae with 8 samples.

Results

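Mitochondria carry their own ribosome, which in yeast translates the few mRNAs encoded in mitochondrial DNA, most of them for subunits of the respiratory chain and the ATP synthase. Its large subunit holds the peptidyl transferase centre and the exit tunnel, and the proteins of that subunit analysed here are encoded in the nucleus, made in the cytosol and imported. The genes described here are those of the deposited table named *MRPL* followed by a number, together with *MRP7*, *MRP20*, *MRP49*, *RML2*, *IMG1*, *IMG2*, *YML6*, *MNP1* and *RTC6*. The rule found 43 genes among the 5774 listed, spread over 13 chromosomes, and all 43 were among the 5759 genes tested. By the ribosomal protein names in use, 28 of them encode proteins with a bacterial homolog and 15 encode proteins found only in mitochondrial ribosomes.

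Poly-A RNA was sequenced from prototrophic CEN.PK cells of *Saccharomyces cerevisiae*, and the study asked which mRNAs change when Pbp1, the yeast ortholog of ataxin-2, is lost. The 4 groups of 2 libraries were *pbp1Δ* cells (*pbp1Δ::Hyg*) 3 h after a switch from glucose (YPD) to lactate (YPL) medium, WT cells treated in the same way, *pbp1Δ* cells growing in YPD at log phase, and WT cells growing likewise in YPD. Yeast ferments glucose and must respire to use lactate. The labels call the libraries of a group biological replicates and the strains are not stated to be more than 1 isolate per genotype, so that the p-values below measure the spread between cultures of that isolate at most.

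Between 33651287 and 39476235 reads per library fell on listed genes. *PBP1* had 0 and 1 reads in the *pbp1Δ* libraries in YPL and 0 in both in YPD, against 11112 to 12686 normalized counts in the WT libraries. All 6 genes used to check the medium, among them the lactate transporter gene *JEN1*, were called higher in YPL than in YPD in both genotypes, with a median log2 fold change of 6.85 in *pbp1Δ* and 6.50 in WT cells. The genotypes also differed in mating-type genes. The summed level of 7 **a**-specific genes ran from 2097 to 2197 normalized counts in *pbp1Δ* and from 14330 to 15821 in WT libraries in YPL, and from 1574 to 1924 in *pbp1Δ* and from 71534 to 86076 in WT libraries in YPD. The summed level of 4 α-specific genes ran from 41797 to 45681 in *pbp1Δ* and from 2008 to 2215 in WT libraries in YPL, and from 135758 to 160790 in *pbp1Δ* and from 1680 to 1704 in WT libraries in YPD. None of these genes was at 0 in a whole group, while *HMRA1*, whose sequence is shared with the **a** mating-type locus, had 0 normalized counts in all 4 *pbp1Δ* libraries and 1174 to 1509 in the 4 WT libraries. The study's strain list gives WT as *MATa* and names no mating type for *pbp1Δ*, so that in every genotype comparison below the deletion and the mating type cannot be told apart.

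Puf3 is an RNA-binding protein of the PUF family that binds a short element in the 3′ UTR of nuclear mRNAs for mitochondrial proteins, many of them ribosomal, and the study asked how Pbp1 bears on such mRNAs. The element was searched as TGTANATA on the gene strand within 200 nt after the stop codon, in the RefSeq sequence of the R64 assembly, which is that of strain S288C and not of CEN.PK. All 43 genes held at least 1 match, 35 of them 1 and 8 of them 2, against 14.5% of the 5753 tested genes with an annotated coding sequence. The reversed letters, ATANATGT, were found in 2 of the 43 genes and in 9.94% of all. A window of 100 nt found 38 of the genes and one of 300 nt found all 43, against 10.5% and 16.7% of all. The first element began 13 to 136 nt after the stop codon, with a median of 52 nt. CCAAT on either strand, the core of the site bound by the HAP complex of respiratory genes, was within 300 nt before the start codon of 15 of the 43 genes and of 42.4% of all. Such matches describe the letters in these windows and not binding.

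The elements shown are those of the gene with the lowest *pbp1Δ* level relative to WT in YPL (*MRPL24*), of the 2 genes next to it, of the gene that rose most in YPL (*MRPL28*), of the gene with the smallest genotype difference in YPL (*MRPL44*), of *MNP1*, for which the study lists a primer pair, and of *MRPL33*, which had the smallest rise in WT cells. Each is given 5′ to 3′ on the gene strand with the 8 matching bases in capitals.
MRPL24, first: tggttttccccTGTATATAaaaaagcatat
MRPL24, second: gcatatctgttTGTACATAtgtaggtatgc
MRPL31: aaaatttcatcTGTATATAgtttaatcatt
IMG2: aataattgtcaTGTATATAtattaattaaa
MRPL28, first: ctgtctcctgcTGTAAATAactgatgatca
MRPL28, second: atataattataTGTACATAgacatataaag
MRPL44: acaagcaagccTGTAAATAatatatatgca
MNP1: ggaatatatcaTGTAAATAtgtttaactct
MRPL33, first: tgacttatataTGTATATAgtattattttt
MRPL33, second: tattttatgtaTGTATATAtttacaagaag

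The capitals lie at chrXIII:650867-650874 and chrXIII:650891-650898 on the plus strand for *MRPL24*, at chrXI:185236-185243 on the minus strand for *MRPL31*, and at chrIII:240064-240071 on the minus strand for *IMG2*. For *MRPL28* they lie at chrIV:1386548-1386555 and chrIV:1386604-1386611 and for *MNP1* at chrVII:375750-375757, all on the plus strand, and for *MRPL44* at chrXIII:720865-720872 on the minus strand. Those of *MRPL33* lie at chrXIII:842260-842267 and chrXIII:842367-842374 on the plus strand. The fifth base of the element was A in 21 of the 51 elements, T in 19, C in 10 and G in 1. A cytosine stood 2 bases before the element in 35 of them and 1 base before it in 18, which includes 11 with both. In 42 of the 43 genes at least 1 element had such a cytosine, against 6.01% of all tested genes with an annotated coding sequence. *MRPL33*, for the protein uL30m, was the exception, with no C at either place before either of its elements. An element with such a C was also found in 29 of the 32 genes of the small mitoribosomal subunit. It was found in 7 of the 9 genes for mitochondrial translation factors and in 2 of the 76 genes of the cytosolic large subunit.

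In YPL, 40 of the 43 mRNAs were called lower in *pbp1Δ* than in WT cells by limma, at a Benjamini-Hochberg adjusted p under 0.05 over all tested genes and a log2 fold change below -0.58, and 0 were called higher. Over all tested genes, 4.17% were called lower in this comparison. *MRPL38* passed the filter of a mean of 10 only through its WT libraries in YPL (group means of 6.20 in *pbp1Δ* and 23.8 in WT cells in YPL, and 4.03 in *pbp1Δ* and 6.98 in WT cells in YPD), so that counts by sign or overlap leave it out. Among the other 42 genes, which averaged at least 100 normalized counts, the median log2 fold change was -1.13, against -0.0056 for all tested genes, and the *pbp1Δ* mean was 30.7% to 65.3% of the WT mean, with a median of 45.7%. Both *pbp1Δ* libraries were below both WT libraries for all 42 of these genes, as they were for 30.1% of all tested genes. The plot of all normalized counts by library shows the 2 WT libraries in YPL at the right of nearly every row. The number of calls depended on single libraries. A fit that leaves 1 library in a compared group has less to estimate from for every gene. The share of all tested genes called in such fits is not given here. The median log2 fold change stayed between -1.25 and -1.06 when any of the 8 libraries was left out. These are bulk RNA values on a relative scale, so that fewer transcripts per cell and a changed total of other RNA cannot be told apart.

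**Figure D1:**
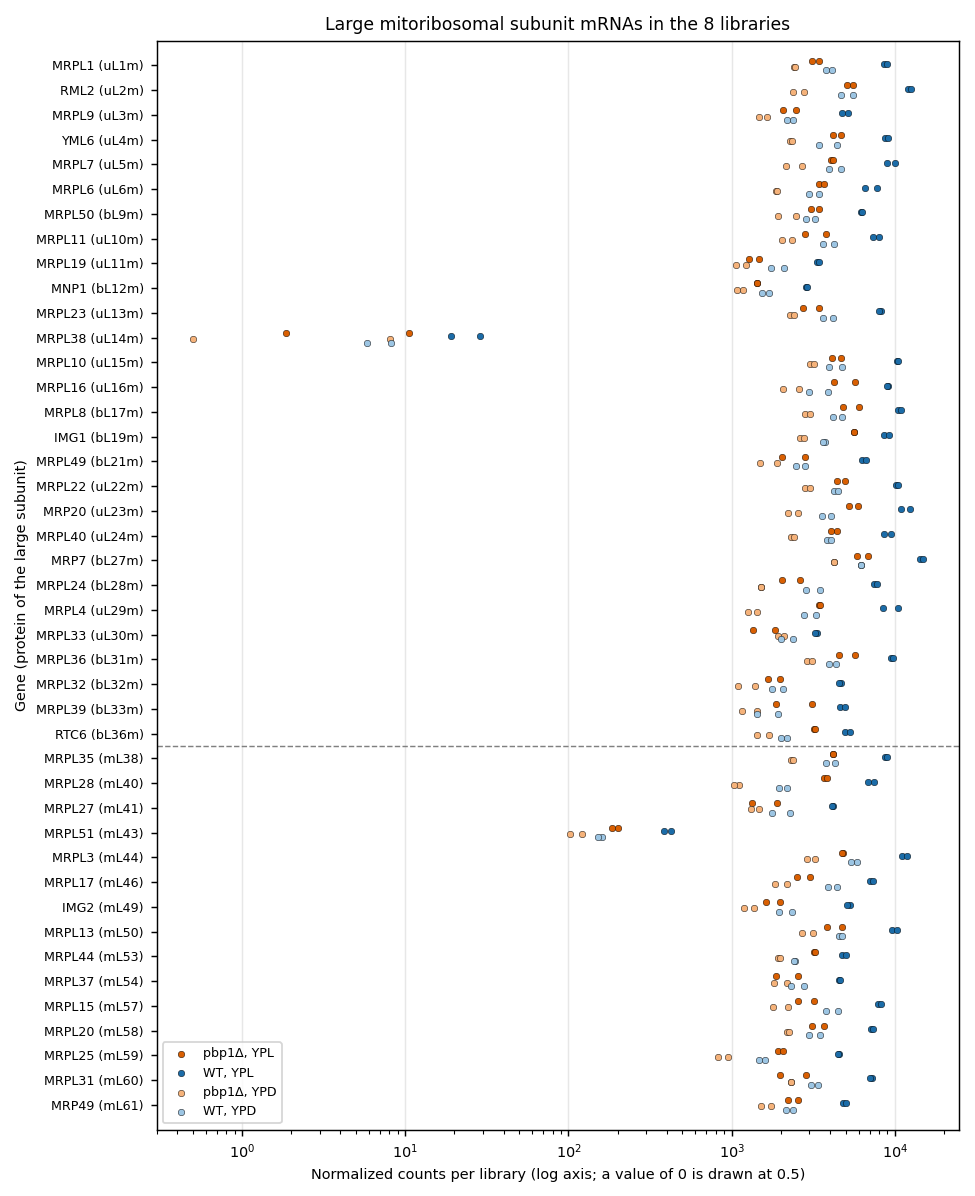
Normalized counts (log axis) of the 43 genes, one row per gene with its protein, in the 2 libraries of each group: *pbp1Δ* in YPL (dark orange), WT in YPL (dark blue), *pbp1Δ* in YPD (light orange) and WT in YPD (light blue). Proteins with a bacterial homolog stand above the dashed line and mitochondrial ones below it. In the 42 rows other than *MRPL38* both *pbp1Δ* YPL points lie left of both WT YPL points, and *MRPL38* lies far to the left of the other rows.

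The largest decreases in YPL were those of *MRPL24*, *MRPL31* and *IMG2*. *MRPL24* (YMR193W) encodes bL28m. It had 2041 and 2633 normalized counts in *pbp1Δ* and 7495 and 7751 in WT cells in YPL. Both *pbp1Δ* libraries lay far below both WT libraries, and its log2 fold change was -1.72 (SE 0.15, limma adjusted p = 0.0027). *MRPL31* (YKL138C) encodes mL60, a protein without a bacterial homolog. It had 1978 and 2875 normalized counts in *pbp1Δ* and 7207 and 7077 in WT cells in YPL, and a log2 fold change of -1.58 (SE 0.17, limma adjusted p = 0.00434). Its *pbp1Δ* libraries differed more from each other than its WT libraries did. *IMG2* (YCR071C) encodes mL49 and was first described as a gene needed to keep the mitochondrial genome intact. It had 1634 and 1975 normalized counts in *pbp1Δ* and 5321 and 5098 in WT cells in YPL, again without overlap, with a log2 fold change of -1.54 (SE 0.15, limma adjusted p = 0.00327). The calls of *MRPL24*, *IMG2* and *MRPL4* held in all 8 fits that left out 1 library, and that of *MRPL31* in 6 of them.

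At the other end stood *MRPL44*, *IMG1* and *RTC6*, among the members with the highest levels per kb of coding length. *MRPL44* (YMR225C), for mL53, had 3184 and 3222 normalized counts in *pbp1Δ* and 4752 and 5050 in WT cells in YPL, and a log2 fold change of -0.61 (SE 0.09, limma adjusted p = 0.01). *IMG1* (YCR046C) encodes bL19m and, like *IMG2*, is named for the integrity of the mitochondrial genome. It had 5636 and 5643 normalized counts in *pbp1Δ* and 8555 and 9265 in WT cells in YPL, with a log2 fold change of -0.66 (SE 0.09, limma adjusted p = 0.00835). *RTC6* (YPL183W-A), for the small protein bL36m, had 3191 and 3242 normalized counts in *pbp1Δ* and 4987 and 5290 in WT cells in YPL, with a log2 fold change of -0.68 (SE 0.12, limma adjusted p = 0.0231). In these 3 genes too the genotypes did not overlap, and the replicates were close. Their calls held in 5, 5 and 4 of the 8 fits that left out 1 library.

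The 3 genes not called in YPL were *MRPL16*, *MRPL39* and *MRPL38*. *MRPL16*, for uL16m, had 4228 and 5730 normalized counts in *pbp1Δ* and 9055 and 8982 in WT cells in YPL (log2 fold change -0.87, limma adjusted p = 0.0668). *MRPL39*, for bL33m, had 1877 and 3117 in *pbp1Δ* and 4595 and 4949 in WT cells in YPL (log2 fold change -0.98, limma adjusted p = 0.113). In both, the *pbp1Δ* replicates stood apart from each other. *MRPL38* (YKL170W), for uL14m, was hardly detected, with 11 and 2 reads in *pbp1Δ* and 32 and 19 reads in WT cells in YPL, and 0 and 8 reads in *pbp1Δ* and 7 and 6 reads in WT cells in YPD. At this depth no fold change can be given for it, and it is left out of the comparisons of level.

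*MNP1* (YGL068W) encodes bL12m, the protein of the flexible stalk that recruits translation factors to the ribosome. It had 1422 and 1427 normalized counts in *pbp1Δ* and 2874 and 2891 in WT cells in YPL, and 1074 and 1177 in *pbp1Δ* and 1540 and 1696 in WT cells in YPD. In both media the *pbp1Δ* libraries were below the WT libraries. The log2 fold change was -1.02 in YPL (SE 0.10, limma adjusted p = 0.00372) and -0.52 in YPD (SE 0.10, limma adjusted p = 0.0993), so that *MNP1* was called in YPL and not in YPD.

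In YPD the same genes were lower in *pbp1Δ* cells by their values, with smaller differences. Over the 42 genes averaging at least 100 the log2 fold change was below 0 in all 42, with a median of -0.64 against -0.018 for all tested genes, and the *pbp1Δ* mean was 44.4% to 91.0% of the WT mean, with a median of 64.7%. With limma, 11 of the 43 genes were called lower and 0 higher, where 0.868% of all tested genes were called lower. Without adjustment, 39 of the 42 genes had a limma p under 0.05, as did 8.20% of all tested genes in either direction. Both *pbp1Δ* libraries were below both WT libraries in 41 of the 42 genes, the exception being *MRPL33*, and in 17.8% of all tested genes. The number of calls in YPD depended on the fit. It fell in the fits listed here and rose in others that are described below with the dependence on processing. The share of all tested genes called in these fits is not given here. No gene was called when any 1 of the 8 libraries was left out or when the 4 YPD libraries were fitted alone, 4 were called when each library was centred on its median and 7 without the trend in the mean, although the median log2 fold change remained between -0.73 and -0.56 over these fits.

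The 11 genes called in YPD were *MRPL4*, *MRPL24*, *MRPL15*, *MRPL17*, *RML2*, *MRPL28*, *MRPL3*, *MRPL25*, *MRPL35*, *MRPL40* and *MRPL1*, of which 6 encode proteins without a bacterial homolog. *MRPL4* (YLR439W), for uL29m at the exit of the tunnel, had the lowest *pbp1Δ* level relative to WT. It had 1267 and 1432 normalized counts in *pbp1Δ* and 2775 and 3303 in WT cells in YPD, a log2 fold change of -1.17 (SE 0.14, limma adjusted p = 0.0258). *MRPL24* followed, with 1511 and 1514 in *pbp1Δ* and 2862 and 3474 in WT cells (log2 fold change -1.06, SE 0.15, limma adjusted p = 0.0398). *MRPL15* (YLR312W-A), for mL57, had 1781 and 2206 in *pbp1Δ* and 3807 and 4468 in WT cells (log2 fold change -1.06, SE 0.16, limma adjusted p = 0.0456). In these 3 genes the genotypes were well apart, and in WT cells replicate 2 was the higher of the pair.

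**Figure D2:**
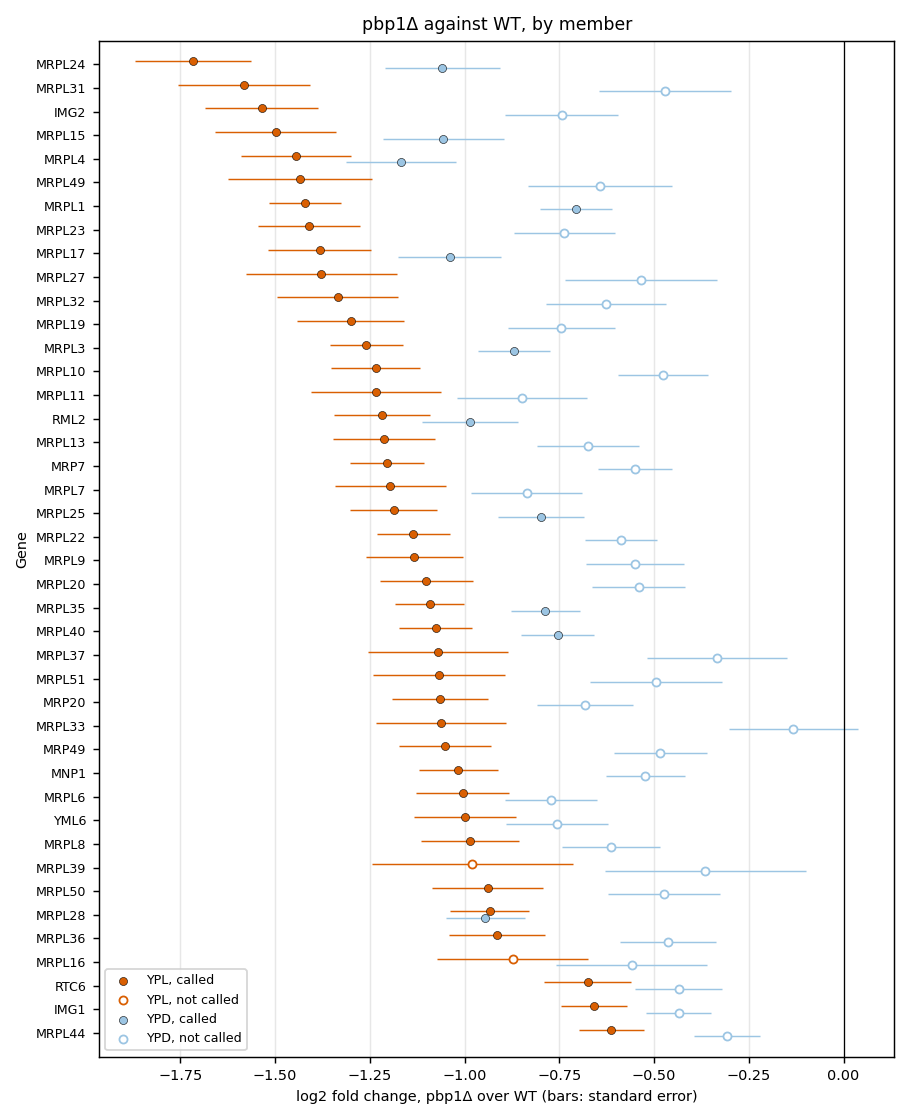
Log2 fold change of *pbp1Δ* over WT for the 42 genes averaging at least 100 normalized counts, in YPL (orange) and in YPD (blue), with standard errors from limma, ordered by the value in YPL. Filled points were called. Every point lies left of 0, and the YPL point lies left of the YPD point in every row except that of *MRPL28*, where they nearly coincide.

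The smallest differences in YPD were those of *MRPL33*, *MRPL44* and *MRPL37*, none of which passed the test. *MRPL33* (YMR286W) had 1914 and 2098 normalized counts in *pbp1Δ* and 2017 and 2392 in WT cells in YPD, and its groups overlapped (log2 fold change -0.13, SE 0.17, limma adjusted p = 1). *MRPL44* had 1914 and 1991 in *pbp1Δ* and 2435 and 2397 in WT cells (log2 fold change -0.31, SE 0.09, limma adjusted p = 0.256). *MRPL37* (YBR268W), for mL54, had 1827 and 2193 in *pbp1Δ* and 2301 and 2765 in WT cells (log2 fold change -0.33, SE 0.18, limma adjusted p = 0.819). In YPL *MRPL33* was called lower, with a log2 fold change of -1.06 (SE 0.17, limma adjusted p = 0.0182) over 1346 and 1845 normalized counts in *pbp1Δ* and 3321 and 3264 in WT cells. Across the 42 genes the log2 fold changes in YPL and YPD, which share no library, had a Pearson correlation of 0.54, and the log2 fold change in YPL had one of -0.32 with the log2 coding length. Both are descriptions over genes measured in the same libraries.

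The rise in YPL was compared in each genotype. In *pbp1Δ* cells 23 of the 43 genes were called higher in YPL than in YPD and 0 were called lower, where 18.1% of all tested genes were called higher. The median log2 fold change over the 42 genes averaging at least 100 was 0.61 in *pbp1Δ* cells, against 0.011 for all tested genes. In WT cells 42 of the 43 genes were called higher and 0 lower, where 19.3% of all tested genes were called higher, and the median was 1.18 against -0.0012 for all tested genes. Over the same 42 genes, the YPL mean was 0.80 to 3.49 times the YPD mean in *pbp1Δ* cells and 1.49 to 3.46 times in WT cells, with medians of 1.54 and 2.25. Both YPL libraries were above both YPD libraries in 38 of the 42 genes in *pbp1Δ* cells and in all 42 in WT cells, as they were in 37.6% and 38.5% of all tested genes. Some of the 20 genes not called in *pbp1Δ* cells were past the adjusted p and missed only the fold threshold. A small p was common in this comparison. Without adjustment, 37 of the 42 genes had a limma p under 0.05, as did 54.4% of all tested genes in either direction. Centring each library on its median took 0.13 off every log2 fold change in either genotype, which left medians of 0.48 in *pbp1Δ* and 1.06 in WT cells.

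The largest rises belonged to *MRPL28*, *MRPL4* and *MRP20* in both genotypes. *MRPL28* (YDR462W), for mL40 in the central protuberance, had 3658 and 3828 normalized counts in YPL and 1106 and 1040 in YPD in *pbp1Δ* cells, and 6836 and 7477 in YPL and 1954 and 2185 in YPD in WT cells. In both genotypes the media were far apart, with a log2 fold change of 1.80 in *pbp1Δ* (SE 0.10, limma adjusted p = 6.3e-05) and of 1.79 in WT cells (SE 0.10, limma adjusted p = 6.86e-05). *MRPL4* had 3408 and 3499 normalized counts in YPL in *pbp1Δ* cells and 8465 and 10448 in WT cells, set against the YPD values above, and rose by 1.36 in *pbp1Δ* (SE 0.14, limma adjusted p = 0.000573) and 1.63 in WT cells (SE 0.14, limma adjusted p = 0.000238) on the log2 scale. *MRP20* (YDR405W), for uL23m, also at the tunnel exit, had 5240 and 5923 normalized counts in YPL and 2209 and 2545 in YPD in *pbp1Δ* cells, and 10990 and 12363 in YPL and 3580 and 4052 in YPD in WT cells. Its log2 fold change was 1.23 in *pbp1Δ* (SE 0.13, limma adjusted p = 0.000505) and 1.61 in WT cells (SE 0.13, limma adjusted p = 0.000159). The calls of these 3 genes held in all 8 fits that left out 1 library, in both genotypes.

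The smallest rises in WT cells were those of *MRPL33*, *MRPL17* and *MRPL19*. *MRPL33* had 3321 and 3264 normalized counts in YPL and 2017 and 2392 in YPD, just past the fold threshold (log2 fold change 0.58, SE 0.17, limma adjusted p = 0.0309), and was called in 5 of the 8 fits that left out 1 library. *MRPL17* (YNL252C), for mL46 in the central protuberance, had 7004 and 7384 in YPL and 3905 and 4409 in YPD in WT cells (log2 fold change 0.79, SE 0.14, limma adjusted p = 0.00382). *MRPL19* (YNL185C), for uL11m at the base of the stalk, had 3330 and 3412 in YPL and 1737 and 2106 in YPD (log2 fold change 0.82, SE 0.14, limma adjusted p = 0.00394). All 3 were higher in both YPL libraries. The annotated end of *MRPL19* overlaps the gene YNL184C by 113 nt, so that some of its reads could belong to either.

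In *pbp1Δ* cells the smallest values were those of *MRPL33*, *MRPL31* and *MRPL37*, and none of these genes was called. *MRPL33* was the single gene of the 42 with both YPL libraries below both YPD libraries, at 1346 and 1845 normalized counts in YPL against 1914 and 2098 in YPD, a log2 fold change of -0.35 that did not pass the test (SE 0.17, limma adjusted p = 0.143). *MRPL31* had 1978 and 2875 in YPL and 2323 and 2310 in YPD (log2 fold change 0.04, SE 0.17, limma adjusted p = 0.865). *MRPL37* had 1868 and 2568 in YPL and 1827 and 2193 in YPD (log2 fold change 0.13, SE 0.18, limma adjusted p = 0.597). The media overlapped in *MRPL31* and *MRPL37*, as they did in *MRPL27*. In WT cells *MRPL31* had 7207 and 7077 in YPL and 3069 and 3361 in YPD, a called rise of 1.15 on the log2 scale (SE 0.17, limma adjusted p = 0.00223).

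**Figure D3:**
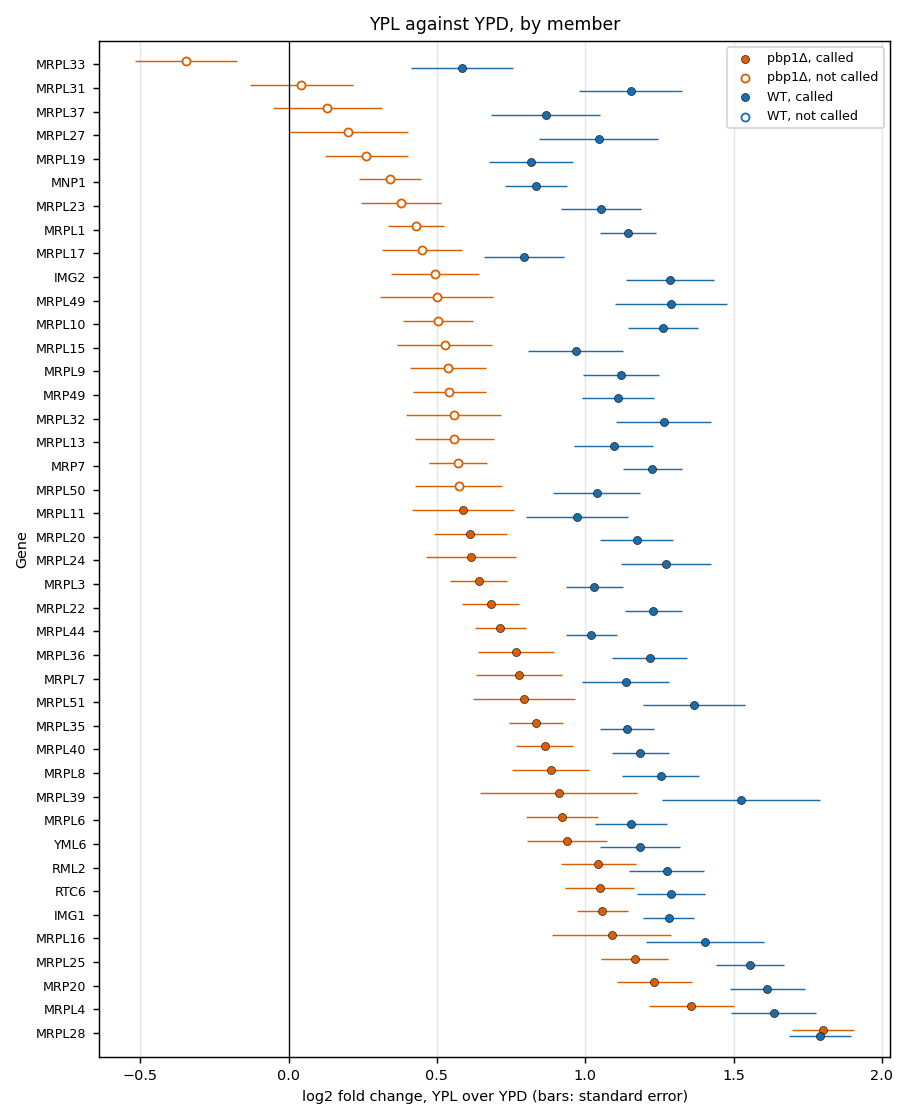
Log2 fold change of YPL over YPD for the 42 genes averaging at least 100 normalized counts, in *pbp1Δ* (orange) and in WT cells (blue), with standard errors from limma, ordered by the value in *pbp1Δ*. Filled points were called. The *pbp1Δ* point lies left of the WT point in every row except that of *MRPL28*, and *MRPL33* is the single row with a point left of 0.

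Whether the rise differed between genotypes was tested as the interaction of genotype and medium, which is also the difference between the genotype effects in the 2 media. Its log2 value was below 0 in 41 of the 42 genes averaging at least 100, with a median of -0.48 against 0.0094 for all tested genes. With limma, 0 of the 43 genes passed an adjusted p of 0.05, where 0.0695% of all tested genes did, and 23 of the 42 had an unadjusted p under 0.05, as did 7.02% of all tested genes in either direction. The most negative values were those of *MRPL31* (-1.11, SE 0.25, limma adjusted p = 0.439), *MRPL33* (-0.93, SE 0.24, limma adjusted p = 0.555) and *MRPL27*, for mL41 (-0.84, SE 0.28, limma adjusted p = 0.64). *MRPL27* (YBR282W) had 1340 and 1902 normalized counts in YPL and 1310 and 1470 in YPD in *pbp1Δ* cells, and 4187 and 4113 in YPL and 1766 and 2287 in YPD in WT cells. Closest to 0 were *MRPL28* (0.01, SE 0.15, limma adjusted p = 1), *IMG1* (-0.22, SE 0.12, limma adjusted p = 0.822) and *RML2* (-0.23, SE 0.18, limma adjusted p = 0.921). *RML2* (YEL050C) encodes uL2m, a protein next to the peptidyl transferase centre. It had 5074 and 5526 normalized counts in YPL and 2380 and 2773 in YPD in *pbp1Δ* cells, and 12018 and 12635 in YPL and 4658 and 5568 in YPD in WT cells. *IMG1* had 2629 and 2792 in *pbp1Δ* and 3719 and 3610 in WT cells in YPD.

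Levels were compared between genes per kb of coding length, as group means over the 42 genes averaging at least 100. The median was 5012 normalized counts per kb in *pbp1Δ* and 11085 in WT cells in YPL, and 2957 in *pbp1Δ* and 4917 in WT cells in YPD. The quartiles were 3785 and 6793 per kb in *pbp1Δ* and 9820 and 14672 in WT cells in YPL. *MRPL39* was the highest in YPL, at 11722 per kb in *pbp1Δ* and 22404 in WT cells, and *MRPL33* was the highest in YPD, at 7686 per kb in *pbp1Δ* and 8447 in WT cells. Below *MRPL39* in WT cells in YPL came *RTC6* at 18221, *MRPL31* at 18034 and *MRPL36* at 18006 per kb, which cannot be ranked by so small a difference. *MRPL31* was at 6128 per kb in *pbp1Δ* cells in YPL, whereas *RTC6* was at 11407. *MRPL51*, for mL43, was the lowest in all 4 groups, at 456 per kb in *pbp1Δ* and 958 in WT cells in YPL, and *MNP1* came next in WT cells in YPL at 4927. *MRPL51* overlaps YPR099C on the opposite strand over 323 of its 423 nt, and the sources used here do not state whether the counting used the strand, so that its level is uncertain.

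**Figure D4:**
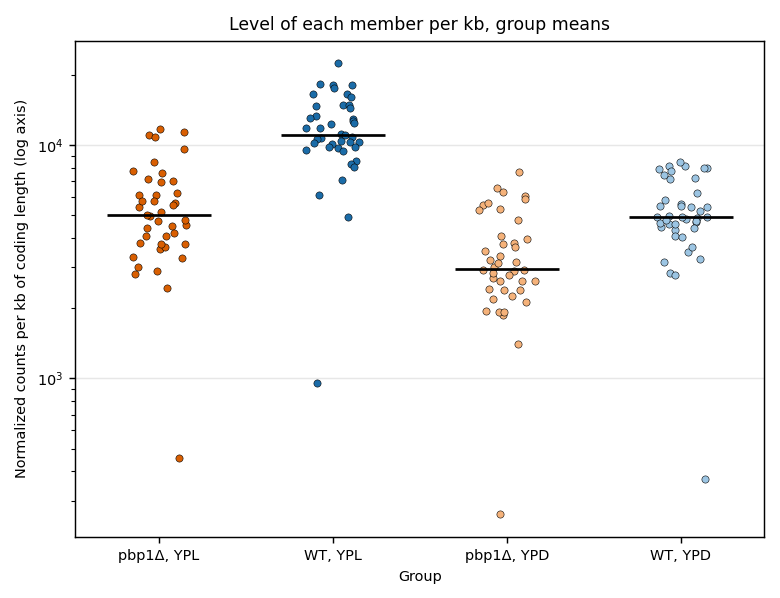
Normalized counts per kb of coding length (log axis) for the 42 genes averaging at least 100 normalized counts, one point per gene from the mean of the 2 libraries, with the median as a line. The median is 5012 in *pbp1Δ* and 11085 in WT cells in YPL, and 2957 in *pbp1Δ* and 4917 in WT cells in YPD. The single low point in each group is *MRPL51*.

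The genes were also grouped by the place of their proteins on the subunit. The 6 genes for proteins around the tunnel exit had a median log2 fold change in YPL of -1.20, and all 6 were called. The 4 genes for proteins of the stalks, *MRPL1*, *MRPL11*, *MRPL19* and *MNP1*, had a median of -1.27, and all 4 were called. The 5 genes of the central protuberance had a median of -1.09 and were all called. Of the 18 genes for proteins of the core, 15 were called, the others being *MRPL16*, *MRPL38* and *MRPL39*. No median is given for the core genes, because it would take in the value of *MRPL38*. The 10 genes for proteins at other places had a median of -1.14, and all 10 were called. The rise in YPL was 0.39 in *pbp1Δ* and 0.90 in WT cells for the stalk genes as a median, and 0.77 in *pbp1Δ* and 1.21 in WT cells for the tunnel exit genes. A median rise of the core genes is left out for the same reason. The median rise was 0.78 in *pbp1Δ* and 1.14 in WT cells for the protuberance genes, and 0.55 and 1.13 for those at other places. The 15 genes for mitochondrial proteins had a median log2 fold change in YPL of -1.19, and all 15 were called. Of the 28 genes for proteins with a bacterial homolog, 25 were called. Their median is left out because they include *MRPL38*. These groups were described and not tested against each other.

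The values were then set beside the elements. Of the genes with a single element and an average of at least 100, the median log2 fold change of *pbp1Δ* over WT in YPL was -1.12 in the 18 genes with A, -1.07 in the 11 with T and -1.21 in the 5 with C at the fifth base. The 8 genes with 2 elements had a median of -1.28 and the 34 with 1 had a median of -1.12. The tested genes outside the naming rule were divided by their elements and the C before them. They include the 3 large-subunit genes outside that rule, which all had an element with such a C. In YPL the 304 other tested genes with an element preceded by C at 1 or 2 bases had a median log2 fold change of -0.67, and 134 of them, or 44.1%, were called lower. The 487 other genes with an element and no such C had a median of -0.08, and 5.13% were called lower. The 4919 genes with no element had a median of 0.02, and 0.834% were called lower. The rise in YPL followed the same order, with medians of 0.45 in *pbp1Δ* and 0.86 in WT cells for the 304 genes, 0.07 in *pbp1Δ* and 0.11 in WT cells for the 487 genes, and -0.02 in *pbp1Δ* and -0.05 in WT cells for the genes with no element. Of the 304 genes, 44 belong to the other mitochondrial lists described next.

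**Figure D5:**
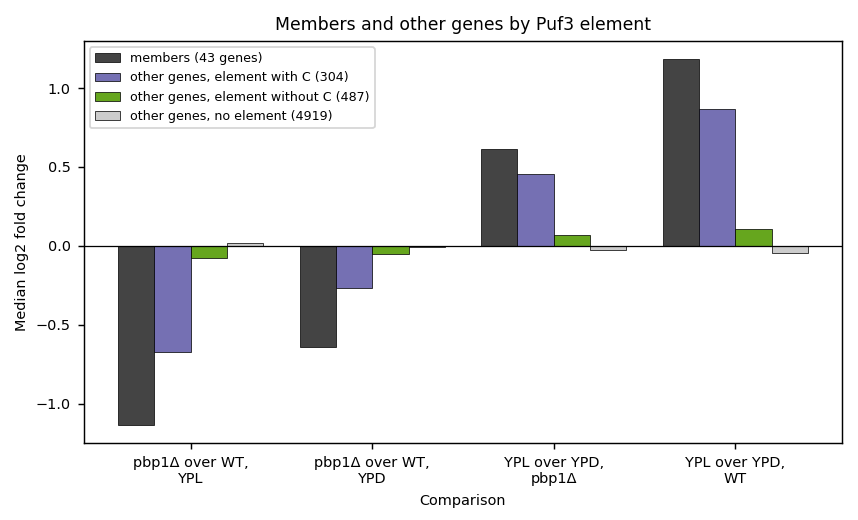
Median log2 fold change in the 4 comparisons for the 43 genes and for the other tested genes with an element preceded by C at 1 or 2 bases (304), with an element without such a C (487) and with no element (4919). The bars are medians over genes and carry no error. Those of the 43 genes take in *MRPL38*. Over the other 42 the medians of *pbp1Δ* over WT are -1.13 in YPL and -0.64 in YPD. Those of YPL over YPD are 0.61 in *pbp1Δ* and 1.18 in WT cells. In YPL the medians of *pbp1Δ* over WT are -1.13, -0.67, -0.08 and 0.02 in that order.

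Other genes of the mitochondrial translation machinery were counted in the same fit. The 3 large-subunit genes outside the naming rule, *MHR1*, *MRX14* and *MRP35*, were all called lower in *pbp1Δ* cells in YPL, with a median log2 fold change of -0.93, and all 3 were called higher in YPL in both genotypes. Of the 32 genes of the small subunit, 30 were called lower in YPL and 5 in YPD, with medians of -1.15 and -0.65, and 19 were called higher in YPL in *pbp1Δ* and 32 in WT cells. Of the 9 genes for translation factors, 5 were called lower in *pbp1Δ* cells in YPL, with a median of -0.98. *MEF1*, for the elongation factor G that moves the ribosome along, was among them at -1.60 (SE 0.11, limma adjusted p = 0.00147), while *FMT1*, for the enzyme that formylates the initiator tRNA, was at -0.0073 (SE 0.15, limma adjusted p = 0.985). Of the 8 genes for assembly and processing of the subunit, 3 were called lower in YPL, namely *AFG3*, *ATP25* and *YTA12*, with a median of -0.65 for the list. *AFG3* and *YTA12* encode the protease of the inner membrane that matures the *MRPL32* protein. The methyltransferase gene *MRM2* was at -0.02 and the GTPase gene *MTG1* at -0.17. The other methyltransferase gene of the list, *MRM1*, was at -0.61, and the other GTPase gene, *MTG2*, at -0.72. Neither was called, nor was *MRH4* at -0.70. Of the 76 genes of the cytosolic large subunit, 0 were called lower or higher in *pbp1Δ* cells in either medium by limma, with 2 at an unadjusted p under 0.05 in YPL and 1 in YPD. Their medians were -0.02 in YPL and -0.06 in YPD. In YPL against YPD these genes ran the other way, with 66 called lower in *pbp1Δ* and 69 in WT cells, where 15.1% of all tested genes were called lower in *pbp1Δ* and 15.7% in WT cells, and medians of -1.55 in *pbp1Δ* and -1.58 in WT cells.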

How the data were processed

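Poly-A RNA from 8 cultures was sequenced. Per the study's methods, reads were trimmed by the authors with Trim Galore, mapped to S288C (R64) with STAR 2.7.3a, counted per gene with featureCounts of Subread 1.6.3 when uniquely mapped, and passed to DESeq2, whose version is given as 3.16. The deposited values are normalized counts per gene, a linear signal for which the authors divided the reads of each library by 1 factor. At a tolerance of 0.01 every value in a library was a whole multiple of the value of 1 read (0.892 to 1.16 normalized counts), from which reads were recovered. With 58 to 80 values per library within 20 reads, no count model was used. Whether counting used the strand is not given in the sources used here.

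A value of 1 was added to the normalized counts before taking log2, and 5759 genes averaging 10 or more were fitted by limma 3.58.1 under R 4.3.3, as a single model of the 4 groups with a trend in the mean. Benjamini-Hochberg adjustment ran over all of these genes. A call needed an adjusted p under 0.05 and a log2 fold change beyond 0.58 in either direction, and for the interaction the adjusted p alone. Permuting 2 against 2 libraries cannot give such p-values, and the results depend on the model's assumptions. Named by rule are *MNP1*, in each comparison the 3 largest and 3 smallest values among genes averaging at least 100, and genes averaging less. Each is given with its values in the libraries of the comparison concerned. *MRPL16*, *MRPL39*, *MRPL51* and the single genes outside the large subunit were named after their values were seen. The members, lists, places and classes were chosen with earlier results of these data known. Motifs were searched in RefSeq's R64 sequence, where 5768 of the 5774 identifiers had a coding sequence. Alternatives changed the pseudocount (0.5 and 8), filter, scaling, trend, libraries, replicate block, thresholds and motif window. Other tables and plots were made in Python 3.11.15 with pandas 2.3.3 and matplotlib 3.10.9.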

Additional observations from a re-analysis of the deposited data

Results flagged for a closer look

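By its library values, *MRPL33*, for uL30m, moved in opposite directions in the genotypes. The fall in *pbp1Δ* cells did not pass the test (limma adjusted p = 0.143). The rise in WT cells was just past the fold threshold (limma adjusted p = 0.0309). In every library of *pbp1Δ* cells it was lower in YPL than in YPD (log2 fold change -0.35), and in every library of WT cells it was higher in YPL (log2 fold change 0.58). The test of that difference, the interaction in limma, gave a log2 value of -0.93 with an adjusted p of 0.555, so that it did not pass over all tested genes. Of the 5759 tested genes, 39 (0.677%) had libraries arranged in this way. *MRPL33* is also the gene of the 43 with no C at 1 or 2 bases before an element, and what part that has in its values was not tested.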

How the results depend on the processing

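The direction of each median held under every alternative tried. For *pbp1Δ* against WT in YPL, the number of genes called lower was 39 to 42 under the alternatives that kept the thresholds and all 8 libraries or the 4 of the comparison, 32 at an absolute log2 fold change over 1, and 11 to 41 when 1 library was left out, against 40. For *pbp1Δ* against WT in YPD, the count of 11 changed to 4 with median centring, 7 without the trend, 0 with the 4 libraries alone, 0 with any 1 library left out, and 4 at an absolute log2 fold change over 1. For YPL against YPD in *pbp1Δ* cells, the count of 23 changed to 35 by the adjusted p alone and to 8 at an absolute log2 fold change over 1. The cause of these changes was not tested, and some of the fits held fewer libraries. Replicate numbers are shared between groups, but the labels do not say that they mark a shared day or batch. Differences between replicates 2 and 1 correlated at 0.24 between the genotypes in YPL and at 0.85 in YPD over all tested genes, and at -0.02 between the media in *pbp1Δ* and -0.22 in WT cells. With the replicate number as a block, 17 genes were called lower in YPD. With a replicate block within each medium 24 were, as were 18 for the interaction, against 0. The share of all tested genes called under these block models is not given here. Whether the higher counts were particular to the large-subunit genes was therefore not tested. Over the genes named by rule, 103 of the single calls recomputed under an alternative were lost and 16 were gained, and 0 called values changed sign. With 2 libraries per group and single cultures left out, the precision rests on 1 spread per gene that the fit takes for all groups. The groups were not alike in it. Over all tested genes, the log2 differences between replicates had an SD of 0.31 in *pbp1Δ* and 0.22 in WT cells in YPL. In YPD it was 0.53 in *pbp1Δ* and 0.58 in WT cells. What part this has in the counts of calls was not tested.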

Other observations

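The level in *pbp1Δ* cells in YPL was set beside that in WT cells in YPD, a pair that differs in both genotype and medium and was not tested. Over the 42 genes averaging at least 100 normalized counts, the median log2 ratio of the means was 0.04, between -0.59 and 0.85, against a median of -0.019 for all tested genes. In 12 genes both *pbp1Δ* YPL libraries were above both WT YPD libraries, in 10 both were below, and in 20 they overlapped, where of all tested genes 35.1% were above, 36.4% below and 28.6% overlapping. The highest ratios were those of *MRPL28* (0.85), *IMG1* (0.62) and *RTC6* (0.61), and the lowest were those of *MRPL17* (-0.59), *MRPL15* (-0.53) and *MRPL19* (-0.49).

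The 43 genes together held 0.369% and 0.440% of all normalized counts in *pbp1Δ* and 0.880% and 0.926% in WT libraries in YPL, and 0.218% and 0.243% in *pbp1Δ* and 0.324% and 0.378% in WT libraries in YPD. Replicate 2 was above replicate 1 for 40 of the 42 genes in *pbp1Δ* and 33 in WT cells in YPL, and for 38 in each genotype in YPD, with median log2 differences of 0.20 in *pbp1Δ* and 0.06 in WT cells in YPL, and 0.14 in *pbp1Δ* and 0.18 in WT cells in YPD. The genes thus deviated together within a group, so that they do not count as separate observations of the spread between cultures.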
